A study of Mus musculus with 12 samples.

Results

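The interleukin-6 (IL-6) pathway was followed in gastrocnemius muscle through 9 transcripts: the cytokine Il6, the receptor genes Il6ra, Il6st and Osmr, the transcription factor Stat3, its feedback inhibitor Socs3, the C/EBP transcription factors Cebpb and Cebpd, and the secreted target Lcn2. The genes were listed by their place in the pathway, and each is represented by the probeset that carries its symbol alone and has the highest mean over the 12 arrays. They are 9 of 22180 genes with such a probeset. Of these, 13308 were tested, after leaving out the dimmest 40%, whose mean over the arrays was below 5.32 (log2). By this filter 8 of the 9 were tested, and Il6 was not.

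RNA of whole gastrocnemius was measured on the Affymetrix Mouse Gene 2.0 ST array, where a set of short probes reads each transcript, and the values are log2 levels. The mice were of the FVB strain, are labelled male, and were 2 to 3 months old. Wild-type mice were compared with ERRα-null mice, which lack the estrogen-related receptor alpha, a nuclear receptor known for its control of mitochondrial genes. Mice of each genotype were either sedentary or had run on a treadmill until exhausted and were sampled 2 h later. Each of the 4 groups has 3 arrays, labelled as biological replicates. The groups are therefore sedentary wild type, sedentary ERRα-null, exercised wild type and exercised ERRα-null. No further allele or agent is named for any group, and the labels do not say how the receptor gene was disrupted.

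IL-6 binds its receptor IL-6Rα, and the pair engages the shared signal transducer gp130, which Il6st encodes. Gp130 activates JAK kinases, which phosphorylate STAT3. STAT3 then enters the nucleus and raises the transcription of its own inhibitor SOCS3, of C/EBP factors and of acute phase proteins. Contracting muscle is a known source of circulating IL-6, and other cytokines such as oncostatin M signal through gp130 paired with a receptor of their own.

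Several properties of the arrays bear on all values below. Array medians lay between 5.15 and 5.26, and no pair of arrays was identical. Esrra, the gene of ERRα, lay between 7.41 and 7.63 on the wild-type arrays and between 6.55 and 6.89 on the ERRα-null arrays. The titles and the source names of the labels disagree on the exercise state of sedentary ERRα-null and of exercised wild type. The mean of 7 heat shock genes, centred over the arrays, lay between −0.94 and −0.60 on the 6 arrays titled sedentary and between 0.27 and 1.26 on the 6 titled exercised, so the titles were used. The female transcript Xist lay between 3.66 and 4.30 on 9 arrays. On 3 exercised ones, which are replicate 3 of wild type and replicates 2 and 3 of ERRα-null, it lay between 7.82 and 7.90, and these are called the arrays of female profile. Leaving them out leaves 1 exercised ERRα-null array, replicate 1, whose group is then assumed to vary like the others, so every value without these 3 arrays that involves exercised ERRα-null rests on that array. The mean of 8 muscle fibre markers was 13.0 to 13.1 on every array. The mean of 8 liver markers ran from 5.60 to 10.5 on sedentary arrays and was at most 8.27 on exercised ones. Liver, adipocyte and lymphocyte markers had medians of −1.24, −0.59 and −1.10 log2 for exercise in wild type, with none of the tested markers called. In whole muscle, a change in the number of cells of a type and a change in RNA per cell cannot be told apart.

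The upstream sequences of the pathway's genes are shown for Socs3, Cebpb and Lcn2, because these are the exercise-responsive members in which a motif of a pathway factor, or of a factor of contraction signalling, was found. They are the 250 bases before the start of the RefSeq gene model (build GRCm38.p6), 5′ to 3′ on the strand of the gene, and capitals mark the matches. The Socs3 window lies at chr11:117969367-117969616 on the minus strand, that of Cebpb at chr2:167688665-167688914 on the plus strand and that of Lcn2 at chr2:32387740-32387989 on the minus strand.
Socs3: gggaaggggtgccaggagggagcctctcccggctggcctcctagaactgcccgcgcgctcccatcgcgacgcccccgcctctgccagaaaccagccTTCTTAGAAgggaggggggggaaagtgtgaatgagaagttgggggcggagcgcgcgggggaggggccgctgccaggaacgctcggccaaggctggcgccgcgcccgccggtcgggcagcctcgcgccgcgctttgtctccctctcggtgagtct
Cebpb: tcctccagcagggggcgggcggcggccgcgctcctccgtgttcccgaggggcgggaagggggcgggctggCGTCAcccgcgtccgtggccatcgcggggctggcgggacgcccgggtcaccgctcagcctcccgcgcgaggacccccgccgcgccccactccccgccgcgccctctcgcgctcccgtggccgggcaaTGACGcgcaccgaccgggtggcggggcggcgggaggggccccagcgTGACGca
Lcn2: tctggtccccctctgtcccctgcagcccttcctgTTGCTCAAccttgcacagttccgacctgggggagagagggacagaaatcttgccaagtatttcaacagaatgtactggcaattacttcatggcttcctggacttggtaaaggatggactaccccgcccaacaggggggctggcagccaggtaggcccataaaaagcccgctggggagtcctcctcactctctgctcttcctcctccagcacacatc
In Socs3 the capitals are TTCTTAGAA, a match to the STAT site TTCNNNGAA (GAS motif) from 154 to 146 bases before the start. In Cebpb they are 3 matches to TGACG, the core of the cAMP response element (CRE) bound by CREB and related factors. The match nearest the start ends 3 bases before it, and the farthest, read on the opposite strand, begins 180 bases before it. In Lcn2 they are TTGCTCAA, a match to TTGCNNAA, used here as the C/EBP motif, from 216 to 209 bases before the start. Both strands were searched. Among 32851 RefSeq windows of this length, 7.02% held the GAS motif, 9.56% the C/EBP motif and 17.8% the CRE core. The windows of Osmr, Stat3 and Il6st held none of the motifs. The Il6 window held a C/EBP match (TTGTGCAA on the opposite strand) and a CRE core, and that of Il6ra held a CRE core. AAGGTCA, the core sequence bound by ERRα, was in 4.08% of all windows and in none of the 8 windows of these genes. Cebpd had no entry in the promoter table. A match is a string of letters and not a bound site.

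After exercise, Osmr, Stat3, Socs3, Cebpb and Lcn2 rose in wild-type muscle, from 1.42-fold for Stat3 to 2.35-fold for Lcn2. Socs3 also rose in ERRα-null muscle, 2.43-fold, and was the one member called there. The receptor subunits Il6ra and Il6st were called in neither genotype. The ligand Il6 lay under the filter and could not be called. A gene is called changed when its limma p, adjusted by the Benjamini-Hochberg method over the 13308 tested genes, is under 0.05. By that rule 5 of the 8 tested members were higher after exercise in wild type, where 2.22% of all tested genes were higher, and 1 of 8 in ERRα-null, where 0.383% were. Averaged over the genotypes the same 5 members as in wild type were higher, against 3.14% of all genes, and no member was lower in any comparison. The median difference of the 8 members was 0.65 log2 in wild type and 0.30 in ERRα-null, beside −0.01 for all tested genes in each. The members were listed with earlier results of these arrays known, so these counts describe the list.

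**Figure D1:**
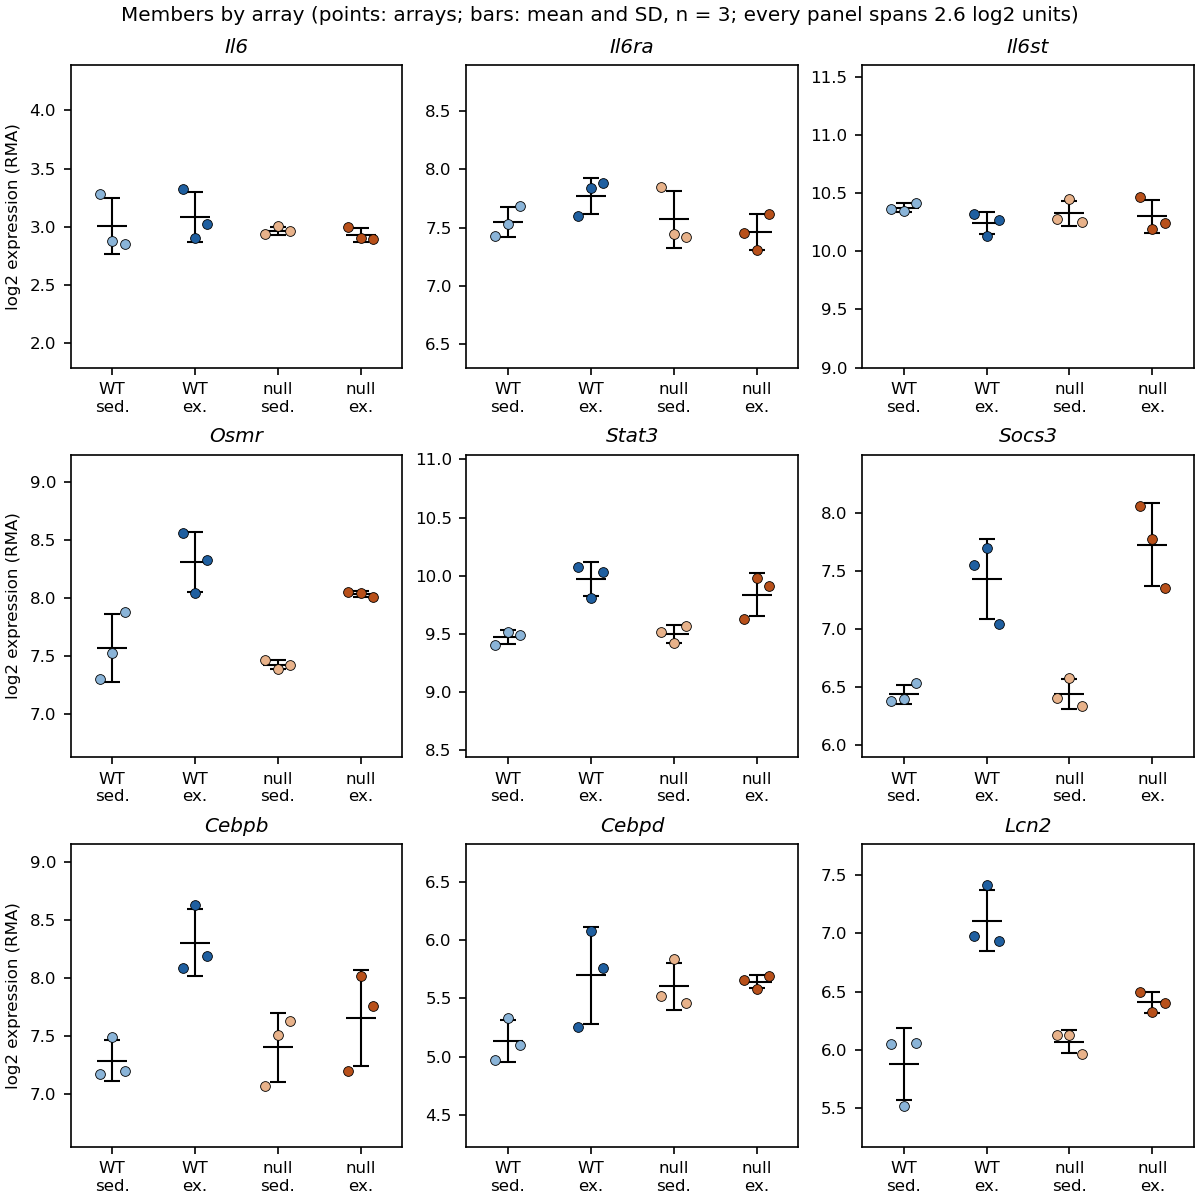
Log2 level of the 9 members on each of the 12 arrays (vertical axis, log2 RMA value; horizontal axis, the 4 groups), with points for arrays and bars for the mean and SD of 3 arrays; each panel spans 2.6 log2 units. Osmr, Stat3, Socs3 and Lcn2 lie higher on all 6 exercised arrays than on any sedentary array, as 1.99% of all tested genes do. Il6 stays between 2.85 and 3.32 throughout.

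Il6, the cytokine itself, was at 3.28, 2.88 and 2.85 in sedentary wild type and at 2.94, 3.00 and 2.96 in sedentary ERRα-null. After exercise it was at 3.32, 2.90 and 3.03 in wild type and at 3.00, 2.90 and 2.89 in ERRα-null. The groups overlapped, and all 12 values lay under the filter. Averaged over genotypes, exercised arrays differed from sedentary ones by 0.02 log2 (exact permutation test within genotype, two-sided p = 0.73, 400 arrangements, smallest possible p 0.005). A limma fit with no filter gave an interval of −0.20 to 0.25 for that difference.

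Il6ra, the receptor chain that binds IL-6, was at 7.42, 7.53 and 7.68 in sedentary wild type and at 7.60, 7.84 and 7.88 after exercise. In ERRα-null it was at 7.85, 7.44 and 7.42 at rest and at 7.45, 7.31 and 7.62 after exercise. The groups overlapped. The exercise difference was 0.23 ± 0.13 log2 in wild type (SE, limma adjusted p = 0.441) and −0.11 in ERRα-null (adjusted p = 0.766). Il6st, the signal transducer gp130 shared by the whole family, ranged from 10.13 to 10.46 over the 12 arrays. In wild type it was at 10.37, 10.34 and 10.41 at rest and lower, at 10.32, 10.13 and 10.27, on the exercised arrays. In ERRα-null it was at 10.28, 10.45 and 10.25 at rest and at 10.46, 10.19 and 10.24 after exercise, with overlap. The exercise difference of Il6st was −0.13 ± 0.08 log2 in wild type (limma adjusted p = 0.477) and −0.03 in ERRα-null (adjusted p = 0.931). Averaged over genotypes the 95% interval of the Il6st difference was −0.21 to 0.05 log2.

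Osmr, the receptor chain that pairs with gp130 to bind oncostatin M, was at 7.30, 7.53 and 7.88 in sedentary wild type and at 7.47, 7.39 and 7.42 in sedentary ERRα-null. After exercise it was at 8.56, 8.04 and 8.33 in wild type and at 8.06, 8.05 and 8.01 in ERRα-null. All 6 exercised arrays lay above all 6 sedentary ones, as they did for 1.99% of all tested genes, and the nearest arrays were 0.13 log2 apart. Osmr rose 1.67-fold in wild type (0.74 ± 0.14 log2, limma adjusted p = 0.0157) and 1.60-fold averaged over genotypes (0.68 ± 0.10, adjusted p = 0.00223). In ERRα-null the difference was 0.61 ± 0.14 log2, with adjusted p = 0.0950, and the 3 exercised arrays lay above the 3 sedentary ones, as 8.99% of tested genes did. The exercise differences of the genotypes differed by −0.13 log2, with a 95% interval of −0.58 to 0.31. The wild-type call was lost without sedentary wild type replicate 2 (0.72, adjusted p = 0.0610) and without exercised wild type replicate 1 (0.62, adjusted p = 0.0625). In a fit of the 6 wild-type arrays alone it did not pass (adjusted p = 0.101), and in one of the 6 ERRα-null arrays alone the ERRα-null difference did (adjusted p = 0.0277). Without the 3 arrays of female profile the wild-type and the averaged calls were both lost, at 0.73 in wild type (adjusted p = 0.112) and 0.68 averaged (adjusted p = 0.0782).

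Stat3, the transcription factor that gp130 activates, was at 9.40, 9.52 and 9.49 in sedentary wild type and at 9.51, 9.42 and 9.57 in sedentary ERRα-null. After exercise it was at 10.08, 9.81 and 10.03 in wild type and at 9.62, 9.98 and 9.91 in ERRα-null. Again all 6 exercised arrays lay above all 6 sedentary ones, but by only 0.06 log2 at the nearest. Stat3 rose 1.42-fold in wild type (0.50 ± 0.10 log2, limma adjusted p = 0.0173) and 1.34-fold averaged over genotypes (0.42 ± 0.07, adjusted p = 0.00399). The difference in ERRα-null was 0.34 ± 0.10 log2 (adjusted p = 0.164), and the interaction, the ERRα-null difference minus the wild-type one, was −0.16 (95% interval −0.47 to 0.14). The arrays measure the amount of Stat3 transcript, not the phosphorylation of the protein. In wild type the call was lost without replicate 1 of sedentary wild type (0.47, adjusted p = 0.0563) or 3 (0.51, 0.0544) and without exercised wild type replicate 1 (0.45, 0.0711) or 3 (0.47, 0.0604). The averaged call was lost when the arrays of female profile were left out (0.30, adjusted p = 0.137), as was that in wild type (0.47, 0.0582).

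Socs3, which STAT3 induces and which blocks gp130 and the JAK kinases in turn, had the largest averaged rise of the 8 tested members. It was at 6.38, 6.40 and 6.53 in sedentary wild type and at 6.41, 6.58 and 6.34 in sedentary ERRα-null. After exercise it was at 7.55, 7.70 and 7.04 in wild type and at 8.06, 7.77 and 7.35 in ERRα-null. The 6 sedentary arrays lay close together, and the lowest exercised array was 0.46 log2 above the highest of them. Socs3 rose 1.98-fold in wild type (0.99 ± 0.18 log2, limma adjusted p = 0.0119), 2.43-fold in ERRα-null (1.28 ± 0.18, adjusted p = 0.00694) and 2.20-fold on average (1.14 ± 0.13, adjusted p = 0.000331). The interaction was 0.29 ± 0.26 log2 (95% interval −0.27 to 0.86, adjusted p = 0.999). A dimmer probeset of Socs3 lay between 4.32 and 5.06 on sedentary arrays and between 5.27 and 5.89 on exercised ones, also without overlap. With it the ERRα-null difference was 0.90 (adjusted p = 0.0681). The wild-type call was lost without exercised wild type replicate 1 (0.93, adjusted p = 0.0537). The wild-type call passed without the arrays of female profile. The ERRα-null and averaged differences passed there too, with 1 exercised ERRα-null array left and the spread taken from the other groups.

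Cebpb, a transcription factor of inflammation and of muscle regeneration, was at 7.18, 7.49 and 7.20 in sedentary wild type and at 8.09, 8.63 and 8.19 in exercised wild type. In ERRα-null it was at 7.07, 7.51 and 7.63 at rest and at 7.21, 8.01 and 7.76 after exercise. In wild type the exercised arrays lay above the sedentary ones, as 10.0% of tested genes did, whereas in ERRα-null exercised replicate 1 lay under 2 of the sedentary arrays. Cebpb rose 2.02-fold in wild type (1.01 ± 0.21 log2, limma adjusted p = 0.0236). In ERRα-null the difference was 0.25 ± 0.21 (adjusted p = 0.656, 95% interval −0.21 to 0.72). After exercise the 3 wild-type arrays lay above the 3 ERRα-null arrays, as 9.31% of tested genes did, and the genotype difference of −0.64 ± 0.21 log2 did not pass (adjusted p = 0.266). Nor did the interaction of −0.76 ± 0.30 (unadjusted p = 0.0268, adjusted p = 0.948). The wild-type call of Cebpb was lost without sedentary wild type replicate 1 (0.96, adjusted p = 0.0631), sedentary wild type replicate 3 (0.97, 0.0876) or exercised wild type replicate 2 (0.85, 0.0803). The averaged rise of 0.63 ± 0.15 log2 (adjusted p = 0.0261) was lost without any of 5 arrays, with adjusted p from 0.0529 to 0.0675. They were sedentary wild type replicate 3 (0.61), sedentary ERRα-null replicate 1 (0.55), exercised wild type replicate 2 (0.55), exercised ERRα-null replicate 2 (0.55) and exercised ERRα-null replicate 3 (0.61). It was also lost when the 3 arrays of female profile were left out (0.44, adjusted p = 0.310) and with the mean of the neutrophil markers as a covariate (0.53, adjusted p = 0.0577).

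Cebpd, a C/EBP factor that STAT3 induces in other tissues, had a mean just above the filter. It was at 4.97, 5.33 and 5.10 in sedentary wild type and at 5.26, 6.08 and 5.76 after exercise. The ERRα-null arrays were at 5.52, 5.84 and 5.46 at rest and at 5.66, 5.58 and 5.70 after exercise. Sedentary wild type was thus the low group, with all 3 of its arrays under all 3 sedentary ERRα-null arrays, as 6.91% of tested genes were. Cebpd was called in no comparison. The exercise difference was 0.57 ± 0.18 log2 in wild type (limma adjusted p = 0.134) and 0.04 in ERRα-null (adjusted p = 0.950), and the genotype difference at rest was 0.47 ± 0.18 (adjusted p = 0.513). Exercised wild type replicate 1 lay among the sedentary wild-type values, and 1 of the 6 exercised arrays lay above every sedentary array. Without exercised wild type replicate 1 the wild-type difference was 0.79 (limma adjusted p = 0.0261) and the averaged one 0.41 (adjusted p = 0.0417). No other alternative setting called Cebpd.

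Lcn2, lipocalin 2, a secreted protein that binds iron-carrying siderophores and is induced by STAT3 and C/EBP factors, had the largest wild-type rise of the tested members. It was at 6.05, 5.52 and 6.06 in sedentary wild type and at 6.98, 7.42 and 6.94 in exercised wild type. In ERRα-null it was at 6.12, 6.13 and 5.96 at rest and at 6.50, 6.32 and 6.40 after exercise. All 6 exercised arrays lay above every sedentary array, as they did for 1.99% of tested genes. The exercised ERRα-null arrays lay below every exercised wild-type array, as 9.31% of tested genes did. The groups thus stood in 3 tiers with both sedentary groups lowest. Lcn2 rose 2.35-fold in wild type (1.24 ± 0.16 log2, limma adjusted p = 0.000930) and 1.72-fold averaged over genotypes (0.79 ± 0.11, adjusted p = 0.00153). The ERRα-null difference was 0.34 ± 0.16 log2 (95% interval −0.01 to 0.68, adjusted p = 0.390). After exercise ERRα-null was lower by 0.70 ± 0.16 log2, which did not pass (adjusted p = 0.0832). The interaction was −0.90 ± 0.22 log2 (95% interval −1.39 to −0.41, unadjusted p = 0.00167, adjusted p = 0.603). Both exercise calls of Lcn2 held when any single array was left out.

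**Figure D2:**
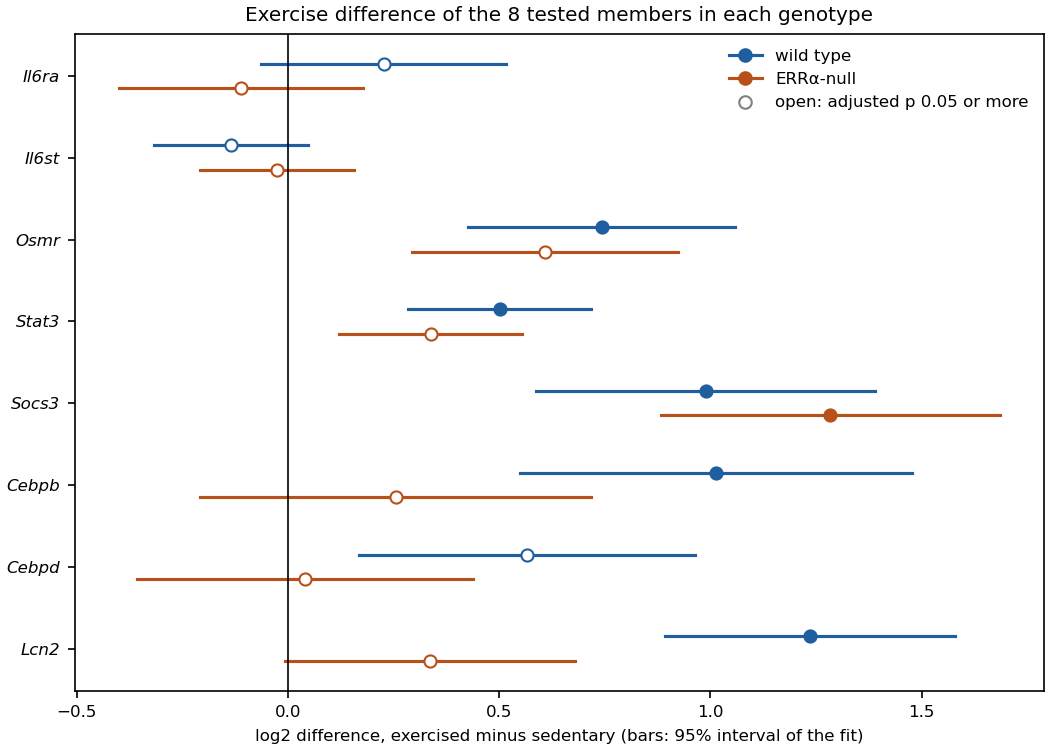
Exercise difference (horizontal axis, log2, exercised minus sedentary) of the 8 tested members in wild type (blue) and ERRα-null (orange), with the 95% interval of the limma fit on 12 arrays; filled points passed at an adjusted p under 0.05. The intervals of the 2 genotypes overlap for every tested member but Lcn2, whose intervals are 0.89 to 1.58 and −0.01 to 0.68. The interaction of Lcn2 did not pass (limma adjusted p = 0.603).

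The genotypes were next compared directly. At rest none of the 8 members was called, where 0.0827% of all tested genes were. The Socs3 difference at rest was 0.00 log2 with a 95% interval of −0.40 to 0.41, and that of Stat3 was 0.03 (−0.19 to 0.25). After exercise none of the 8 was called either, against 0.376% of tested genes (50 genes, and 23 with the replicate number as a block). Averaged over states none was, against 1.43%, and the interaction called none, against 0.00751%. At an unadjusted p under 0.05 in limma, the count of members was 1 of 8 at rest (Cebpd), where 8.22% of all tested genes had such a p, and 3 of 8 after exercise, where 10.4% did. It was 1 averaged over states (Lcn2), where 12.4% did, and 2 for the interaction (Lcn2 and Cebpb), where 5.12% did. The 3 after exercise were Lcn2 and Cebpb, given above, and Il6ra (−0.31 ± 0.13, unadjusted p = 0.0362, adjusted p = 0.438), and none of these passed adjustment. The median over the 8 members was −0.20 log2 for genotype after exercise and −0.25 for the interaction, beside 0.00 for all tested genes in each. The comparisons share arrays, so their values are given side by side and were not set against each other.

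Markers of neutrophils were examined because these cells store LCN2 in their granules. All 10 markers on the array lay under the filter, and none was tested. Their mean log2 level was 4.40 to 4.54 in sedentary wild type, 4.47 to 4.60 in sedentary ERRα-null, 4.52 to 5.73 in exercised wild type and 4.40 to 4.63 in exercised ERRα-null. The value of 5.73 belongs to exercised wild type replicate 2, where the highest markers were Retnlg at 6.68, Ngp at 6.23, Ltf at 6.03 and S100a9 at 5.95. Every marker but Cxcr2 lay above all sedentary arrays there. Cxcr2 was at 5.71, against up to 5.79 on sedentary arrays, and Csf3r was at 5.10, against up to 5.02. The same array had the highest Lcn2 (7.42) and the highest Cebpb (8.63) of the 12. Without it Lcn2 rose by 1.08 log2 in wild type (limma adjusted p = 0.00304), and the Cebpb difference of 0.85 did not pass, as given above. With the neutrophil marker mean as a covariate, a setting chosen after seeing the data, Lcn2 rose by 1.08 (adjusted p = 0.00647). Under that covariate Cebpb was at 0.79 (adjusted p = 0.116) and Socs3 at 0.81 (adjusted p = 0.0651). Of 8 macrophage and monocyte markers, Cd14 rose in wild type (1.01 log2, limma adjusted p = 0.0225) and averaged over genotypes (0.75, adjusted p = 0.0104). Csf1r fell averaged over genotypes (−0.42, adjusted p = 0.0420). The mean of the 8 lay between 6.80 and 7.31 on all arrays, and the part of macrophages in the members' differences was not tested.

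**Figure D3:**
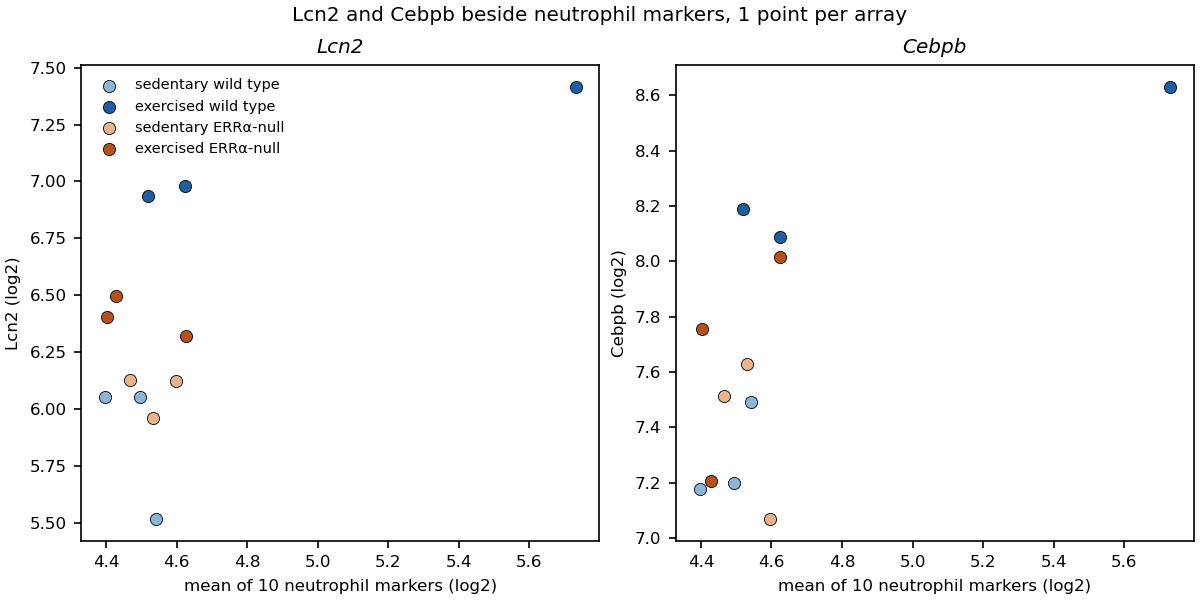
Lcn2 (left) and Cebpb (right) on each array (vertical axes, log2) against the mean of 10 neutrophil markers (horizontal axis, log2), with colours for the 4 groups. 1 exercised wild-type array stands apart at a marker mean of 5.73, and the other 11 arrays lie between 4.40 and 4.63; Lcn2 is high in all 3 exercised wild-type arrays.

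The liver, adipocyte and lymphocyte markers had negative medians for exercise with no marker called, as given above, and their part in the members' differences was examined with their means as 3 scores. With these scores as covariates, 1 member was called in wild type (Osmr), none in ERRα-null, and 2 averaged over genotypes (Osmr and Socs3). The differences themselves were then 1.26 for Socs3, 1.19 for Lcn2, 0.79 for Cebpb and 0.56 for Stat3 in wild type, with adjusted p of 0.0647, 0.0629, 0.297 and 0.138. Socs3 in ERRα-null was at 1.54 (adjusted p = 0.0791).

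The other genes of the pathway were taken from 6 lists of 73 further genes, of which 65 were on the array and 56 were tested. Averaged over genotypes 8 of the 56 were higher after exercise and 2 were lower, where 6.57% of all tested genes were called, with a median of 0.06 log2. In wild type 6 were higher and none lower, where 2.22% of all tested genes were higher. In ERRα-null 1 was higher, where 0.383% of all tested genes were. Among the 5 tested cytokines of the IL-6 family none was called for exercise. Cntfr, the receptor chain for ciliary neurotrophic factor, was the one other receptor gene called. It was at 9.33, 9.31 and 9.34 in sedentary wild type, at 10.27, 10.30 and 10.54 in exercised wild type, at 8.57, 8.83 and 8.48 in sedentary ERRα-null and at 9.40, 9.67 and 9.80 in exercised ERRα-null. It rose 2.06-fold in wild type (1.04 ± 0.12 log2, limma adjusted p = 0.000343) and 2.00-fold in ERRα-null (1.0 ± 0.12, adjusted p = 0.00191). The ERRα-null call was lost when the arrays of female profile were left out, with 1 exercised array remaining in that genotype (0.77, adjusted p = 0.142), and with the 3 tissue scores in the model (0.83, adjusted p = 0.101). Of the 8 tested JAK and STAT genes, Stat3 was the one called for exercise.

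Among the 16 tested feedback inhibitors and phosphatases, 2 were called averaged over genotypes, Socs3 and Cish. Cish, an inhibitor that STAT5 induces, rose by 0.89 ± 0.19 log2 averaged over genotypes (limma adjusted p = 0.0170) and was called in neither genotype alone. Of the 6 tested C/EBP genes Cebpa, a factor of adipocytes and liver, fell by 0.77 ± 0.19 averaged over genotypes (adjusted p = 0.0314), opposite in direction to Cebpb. With the liver, adipocyte and lymphocyte scores as covariates it was −0.52 (adjusted p = 0.257). Of the 23 tested targets 6 were higher in wild type, where 2.22% of all tested genes were. Those with the smallest p beside Lcn2 were Fgl2 (0.75 ± 0.11 log2, adjusted p = 0.00290), the kinase gene Pim1 (1.15 ± 0.23, 0.0201), the growth regulator Myc (0.73 ± 0.15, 0.0228) and the survival gene Mcl1 (0.50 ± 0.11, 0.0302). Averaged over genotypes 7 were higher, against 3.14% of all tested genes. Fgl2 (0.59 ± 0.08, adjusted p = 0.00101), Myc (0.66 ± 0.11, 0.00344), the chemokine gene Ccl2 (0.96 ± 0.19, adjusted p = 0.00903) and the cell cycle inhibitor gene Cdkn1a (0.78 ± 0.17, adjusted p = 0.0170) had the smallest p there beside Lcn2. Orm1, an acute phase protein of liver named here after its values were seen, was the 1 target lower on average (−0.92 ± 0.21, adjusted p = 0.0196). Several of these calls were lost when a single array was left out. In wild type Myc did not pass without sedentary wild type replicate 1 or 3 or exercised wild type replicate 1 (0.63, 0.73 and 0.57, adjusted p from 0.0678 to 0.0757). Pim1 did not pass without sedentary wild type replicate 1 or 3 or exercised wild type replicate 1 or 2 (0.94 to 1.11, adjusted p from 0.0533 to 0.0781). Mcl1 did not pass without sedentary wild type replicate 2 or 3, exercised wild type replicate 2 or 3 or exercised ERRα-null replicate 3 (0.39 to 0.54, adjusted p from 0.0503 to 0.111). The last of these arrays is not part of the wild-type difference, which stayed at 0.50 without it. Mcl1 and Pim1 have 2 probesets each. With their mean the wild-type call of Mcl1 was lost (0.35, adjusted p = 0.134). The averaged calls of Mcl1 (0.27, 0.0719) and Pim1 (0.33, 0.134) were then lost as well. Orm1 did not pass at −0.85 (adjusted p = 0.0531) when replicate 3 of sedentary wild type was left out, nor without exercised ERRα-null replicate 2 (−0.82, 0.0564). Cebpa passed without sedentary wild type replicate 1, sedentary ERRα-null replicate 2 or exercised wild type replicate 1, and did not when any other single array was left out (−0.80 to −0.64, adjusted p from 0.0582 to 0.0734). The averaged calls of Fgl2, Ccl2, Cdkn1a and Cish were lost with no single array, and those of Fgl2 (adjusted p = 0.0524), Cdkn1a (0.174), Orm1 (0.263) and Cebpa (0.238) were lost without the 3 arrays of female profile, as was the wild-type call of Mcl1 (0.124). With the 3 tissue scores in the model the averaged calls of Cdkn1a (0.45, adjusted p = 0.478), Cish (0.58, 0.479), Ccl2 (1.29, 0.0933) and Orm1 (−0.80, 0.377) were lost, and in wild type those of Mcl1 (0.32, 0.383) and Pim1 (1.54, 0.0542). The wild-type calls of Myc, Mcl1 and Pim1 were also lost in a fit of the 6 wild-type arrays alone (adjusted p from 0.0661 to 0.0995) and with the neutrophil covariate (0.0726 to 0.141), and the averaged call of Orm1 with array weights (0.0651).

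**Figure D4:**
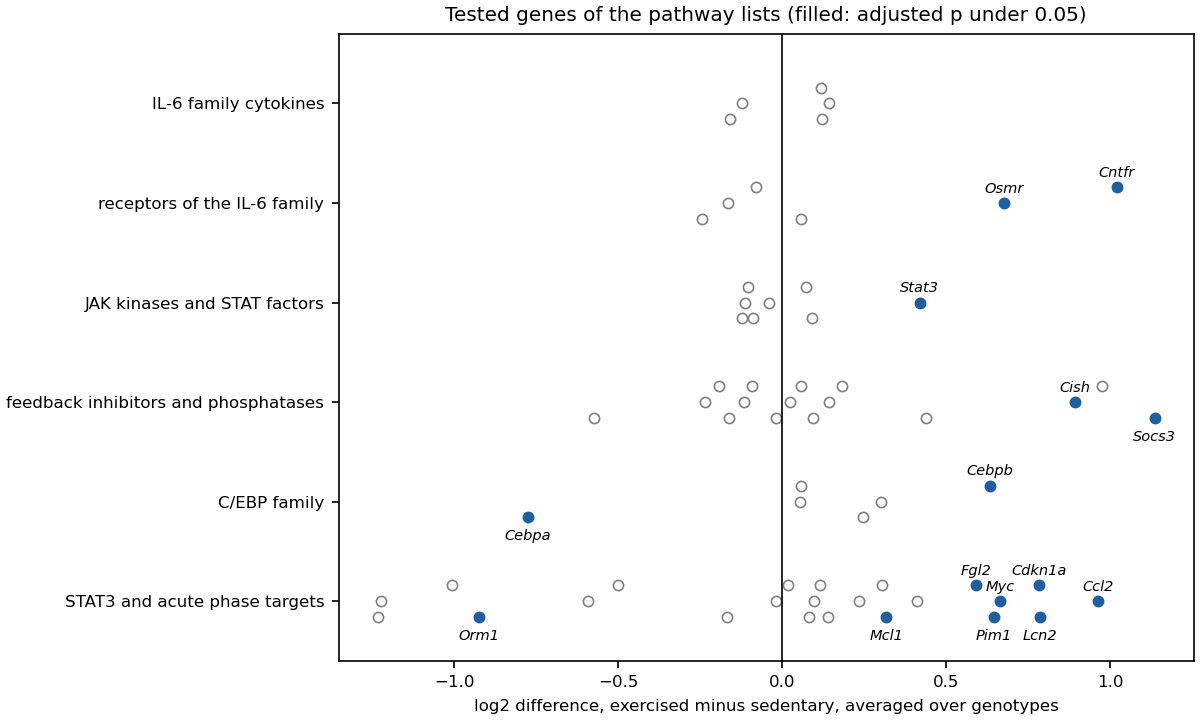
Exercise difference averaged over genotypes (horizontal axis, log2) of every tested gene of the 6 pathway lists (rows), members included; filled and named points passed at an adjusted p under 0.05. Called genes lie in the receptor, STAT, inhibitor, C/EBP and target rows. The row of IL-6 family cytokines has none among its 5 tested genes, and Il6, which was not tested, is not in it.

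In the genotype comparisons 3 relatives of the members were called, out of 56 tested. Averaged over states 1 was higher and 2 were lower, where 1.43% of all tested genes were called. After exercise 1 was lower, where 0.376% were called, and at rest none was called, where 0.0827% were. Cntfr was lower in ERRα-null averaged over states (−0.73 ± 0.08 log2, limma adjusted p = 0.00272). It was also lower after exercise, at −0.75 ± 0.12 (adjusted p = 0.0227). At rest its difference was −0.71 ± 0.12 (adjusted p = 0.0515). Its interaction was −0.04 (95% interval −0.40 to 0.32). The call after exercise was lost when any 1 of the 6 exercised arrays was left out, at −0.84 to −0.64 with adjusted p from 0.0633 to 0.0770. It was also lost in a fit of the 6 exercised arrays alone (adjusted p = 0.0822) and with the neutrophil covariate (0.0832). With the replicate number as a block on those 6 arrays, a setting chosen after seeing the data, Cntfr passed (adjusted p = 0.0171). The titles state no pairing of these numbers. Under that block Pim1, at −0.73 ± 0.23 and adjusted p = 0.249 without it, passed as well (adjusted p = 0.0413). Lifr, the receptor chain for leukemia inhibitory factor, was lower averaged over states (−0.48 ± 0.09, adjusted p = 0.0191), and Ctf1, which encodes cardiotrophin 1, was higher (0.25 ± 0.05, adjusted p = 0.0285). Lifr lay between 9.56 and 9.86 in sedentary wild type and between 9.25 and 9.37 in sedentary ERRα-null, and after exercise between 9.31 and 9.69 against 8.74 to 9.13. Its call was lost without sedentary wild type replicate 1 (−0.43) or 2 (−0.49) or exercised wild type replicate 1 (−0.46), with adjusted p from 0.0512 to 0.0520. Ctf1 lay between 7.77 and 8.0 on the wild-type arrays and between 8.02 and 8.26 on the ERRα-null arrays, without overlap, as 0.496% of tested genes did in that direction. Its call was kept without sedentary wild type replicate 3, sedentary ERRα-null replicate 1 or exercised wild type replicate 2, and was lost without any other single array (0.24 to 0.27, adjusted p from 0.0547 to 0.0894). The Ctf1 call was also lost with the replicate block in the fit of all 12 arrays (adjusted p = 0.0517), with median centring (0.0949), with the 3 tissue scores (0.0667) and with the neutrophil covariate (0.0524). Without the 3 arrays of female profile the averaged calls of Lifr (adjusted p = 0.110) and Ctf1 (0.255) and the call of Cntfr after exercise (0.132) were lost, the last with 2 wild-type arrays against 1 ERRα-null array.

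**Figure D5:**
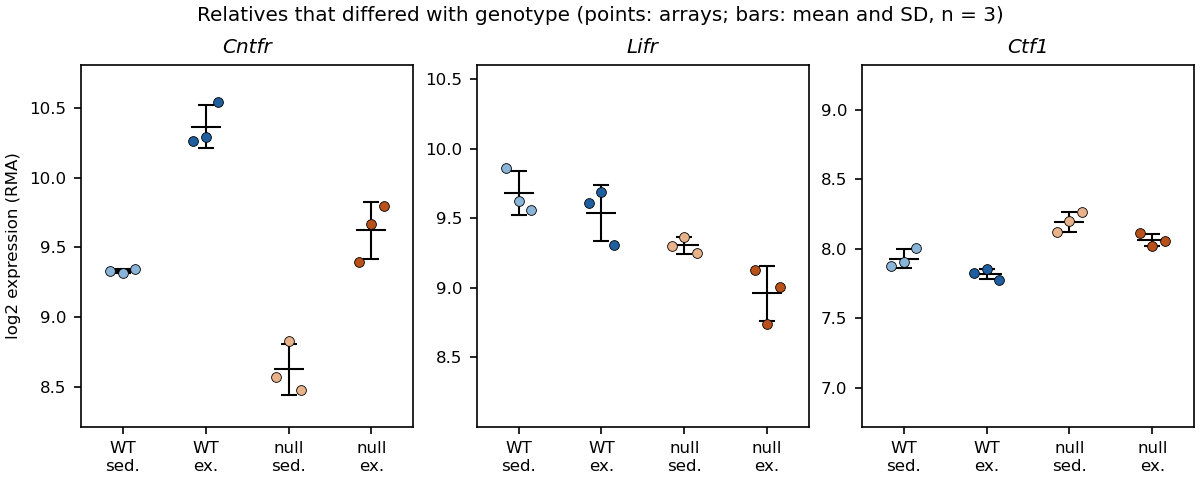
Log2 level of Cntfr, Lifr and Ctf1 on each array (vertical axis, log2 RMA value) in the 4 groups, with points for arrays and bars for the mean and SD of 3 arrays. In both states the ERRα-null points of Cntfr lie under those of wild type, and they are higher after exercise in both genotypes; Lifr is lower and Ctf1 higher in ERRα-null in both states.

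For each of the 5 members called for exercise, the 3 tested genes outside the pathway lists with the highest Pearson correlation over the 12 arrays were looked up. All 12 arrays carry the exercise contrast, so the correlation of the deviations from the group means is given beside each. Osmr was most like Fndc3b (r = 0.953, deviations 0.896), Sf1 (0.935, 0.887) and S100a10 (0.934, 0.599). Stat3 was most like Mall (0.965, 0.901), Wbp1l (0.943, 0.788) and Cnksr3 (0.942, 0.811). Socs3 was most like the fibronectin receptor subunit gene Itga5 (0.934, 0.722), the small heat shock protein gene Hspb1 (0.919, 0.313) and Mast4 (0.919, 0.503). Cebpb was most like the basic leucine zipper genes Maff (0.972, 0.931) and Bach1 (0.947, 0.828) and the chaperone gene Hspa4 (0.943, 0.868). Lcn2 was most like Nle1 (0.950, 0.936), Arid5a (0.931, 0.837) and the elongation factor gene Ell2 (0.926, 0.295). In every pair the correlation of the deviations was below that of the levels, and it was lowest for Lcn2 with Ell2 and Socs3 with Hspb1. The genes were picked for a high correlation on these same arrays, so both values describe the pairs picked.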

How the data were processed

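Gastrocnemius RNA of 12 mice was measured on 12 Affymetrix arrays. The deposited values are log2 expression values per probeset, made by the authors with RMA; the submitters' processing notes also name Transcriptome Analysis Console and Affymetrix Expression Console. RMA gives all arrays 1 distribution after background correction and then combines the probes of a set, so differences are relative to the bulk of transcripts and those of dim transcripts are compressed. Software versions: not given in the sources used here, nor is a genome build. Arrays have no read depth, and their number limits the precision.

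Groups were taken from the sample titles. Of 41345 probesets 23521 have 1 gene symbol, 1814 several and 16010 none in the platform annotation, and 23328 of the first matched the RefSeq table of GRCm38.p6. The brightest single-symbol probeset stood for a gene. All 12 arrays entered 1 linear model of 4 group means (8 residual degrees of freedom), fitted with limma 3.58.1 in R 4.3.3, with eBayes and an intensity trend. The tests were two-sided, with Benjamini-Hochberg adjustment over 13308 genes in each of 7 comparisons. A value after ± is a standard error. The fit was tested on simulated data. Promoter windows came from RefSeq, build GRCm38.p6, which held 8 of the 9 genes.

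The members and gene lists were chosen with earlier results of these data known. Named are the 9 members, the called genes of the pathway lists (up to 4 per list and comparison by smallest p), marker genes as checks, and 3 genes most like each member called for exercise on average. Replicate numbers come from the titles, which state no pairing. Between exercised wild type and exercised ERRα-null the deviations from the group means correlated at 0.31, 0.21 and 0.17 for the 3 numbers. In the other pairs of groups at least 1 number was below 0.1 (−0.28 to 0.35). Arrays of unlike number were not compared in this way, so a pairing was not established. Alternatives were 25 settings: the block, the arrays fitted, the filters, the probesets, the trend, centring, array weights, marker covariates and arrays left out, of which 3 were chosen after seeing the data.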

Additional observations from a re-analysis of the deposited data

Results flagged for a closer look

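For 2 members the exercise difference differed between the genotypes at an unadjusted p under 0.05 in limma's interaction test, as it did for 5.12% of all tested genes. The exercise difference in ERRα-null minus that in wild type was −0.90 log2 for Lcn2 (unadjusted p = 0.00167) and −0.76 log2 for Cebpb (unadjusted p = 0.0268). Neither passed adjustment over all tested genes (adjusted p = 0.603 and 0.948), and 1 of 13308 genes did. Lcn2 rose on all 3 exercised wild-type arrays above every other array. Without exercised wild type replicate 2, the array with the highest neutrophil markers, the interaction was −0.75 for Lcn2 (unadjusted p = 0.00387) and −0.59 for Cebpb (unadjusted p = 0.0715). Without the 3 arrays of female profile exercised ERRα-null is replicate 1 alone, so the value rests on that array and takes its spread from the other groups; it was −0.90 for Lcn2 (unadjusted p = 0.0180) and −1.27 for Cebpb (unadjusted p = 0.00454). In none of these settings did the adjusted p fall under 0.05.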

How the results depend on the processing

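Over 1292 alternative values of the members, 1249 kept their side of the threshold, 38 lost a call and 5 gained one. Only 257 of the 1292 belong to the 11 called results, and the 38 lost calls are all among these 257. No called value turned its sign. Values that were not called could turn theirs, as for Cebpb in ERRα-null (−0.20 to 0.48 over the alternatives). The 5 calls for exercise in wild type became 1 with the liver, adipocyte and lymphocyte scores as covariates (Osmr), 3 without the arrays of female profile (Socs3, Cebpb, Lcn2), which leaves 1 exercised ERRα-null array, and 3 with the neutrophil covariate (Osmr, Stat3, Lcn2). The 5 averaged calls became 2 with the first of these settings (Osmr, Socs3) and 2 with the second (Socs3, Lcn2). The 1 call in ERRα-null became 0 with the 3 scores, 2 with only the arrays compared (Osmr, Socs3) and 3 with array weights (Osmr, Stat3, Socs3). Leaving out 1 array gave 3 to 5 calls in wild type, 4 to 6 averaged and 1 in ERRα-null. With a replicate block in the fit of all 12 arrays the counts were 5, 1 and 5 for exercise in wild type, in ERRα-null and averaged, and 0 in the other comparisons, so the block changed no call of a member. On the compared arrays alone the block gave 1 call in wild type (Cebpb) and 0 in ERRα-null. For genotype after exercise it gave 0 (adjusted p = 0.0724 for Lcn2 and 0.0522 for Cebpb). Over all tested genes the count of calls ran from 143 to 546 around 457 for exercise in wild type, from 0 to 268 around 85 in ERRα-null and from 170 to 1269 around 874 averaged. For genotype it ran from 1 to 53 around 11 at rest, from 2 to 161 around 50 after exercise and from 6 to 363 around 190 averaged, and from 0 to 6 around 1 for the interaction. The causes were not tested. The covariates and the smaller fits leave fewer degrees of freedom. The level of Il6, at 2.85 to 3.32 far under the filter of 5.32, and that of Cebpd, just above it, limit what their differences can show.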
